A study of Mus musculus with 4 samples.

Results

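The genes described here mark the blood vessels of the cochlea. They are 7 genes of endothelial cells (Pecam1, Cdh5, Kdr, Tek, Cldn5, Emcn and Flt1) and 3 genes of pericytes (Pdgfrb, Rgs5 and Abcc9), taken by name from the 37239 genes listed in each deposited file, and all 10 were found. The libraries came from whole cochleae dissected at postnatal day 8. They comprise 2 libraries of Ikzf2+/+ mice, called wild-type, and 2 libraries of littermates homozygous for cello, Ikzf2cello/cello. Cello is a missense allele of Ikzf2, which encodes the zinc finger transcription factor helios of outer hair cells, and the allele is carried by every cell of the animal. The labels name no treatment and do not say whether a library holds 1 animal or a pool. P-values therefore measure the spread between these libraries. The comparison asks which cochlear transcripts differ between the genotypes.

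Endothelial cells line the vessels, and pericytes wrap around the capillaries from outside. In the cochlea both are dense in the stria vascularis, whose capillaries supply the epithelium that makes the endocochlear potential and, sealed by tight junctions, form the blood-labyrinth barrier. The vessels are built and kept by signals between cells: VEGF acts on the receptors Kdr and Flt1 of endothelium, angiopoietins act on Tek, and PDGF-B released by endothelium acts on Pdgfrb of pericytes. In RNA of a bulk tissue, fewer cells of a type and less RNA per cell cannot be told apart.

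Each library held 42152616 to 49719984 counted alignments, of which 70.0% to 72.8% lay in genes. Values are in CPM, the reads of a gene scaled to a common total of counted alignments, and 1 read was worth 0.0201 to 0.0237 CPM. The 10 genes were covered by 961 to 18732 reads per library, so that counting alone gives a relative error of at most 3.23%. Ikzf2 itself stood at 22.9 and 18.5 CPM in the wild-type libraries against 17.7 and 16.9 CPM in cello. The difference, -0.24 (SE 0.13) on the log2 scale, did not pass (limma, adjusted p = 0.545), and a missense allele need not alter the transcript level, so this does not check the labels. All 8 markers listed for the cochlea were detected in every library, among them the hair cell genes Myo7a at 14.2 to 21.0 CPM and Slc26a5 at 9.69 to 24.9 CPM. These markers were not level between the genotypes. Both cello libraries lay below both wild-type libraries for 4 of the 8, against 28.7% of all tested genes. The direction was mixed, with log2 fold changes above 0 for 3 of the 8 and below 0 for 5. Cello replicate 1 was the highest library for 3 of the 8. Their sums were 2069 and 1944 CPM in wild-type and 3507 and 1679 CPM in cello. Limma called 0 of the 8 and DESeq2 called 4, against 1.44% of the genes to which it gave an adjusted p. Beside the vessel genes the libraries differed in other tissues: 6 bone markers summed to 1152 and 1292 CPM in wild-type and to 2292 and 952 CPM in cello, and 8 neuron and Schwann cell markers summed to 983 and 2647 CPM against 3848 and 4766 CPM.

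Promoters of 7 of the 10 genes were found in the RefSeq table (GRCm38.p6). For 4 of them the 250 bases before the RefSeq start are shown, 5′ to 3′ on the strand of the gene. Kdr and Flt1 are shown because they are paired receptors of 1 ligand family, Emcn because it had the smallest excess in cello replicate 1, and Rgs5 because it was the gene with both cello libraries above both wild-type libraries. Capitals mark the ETS cores CGGAAG and AGGAAG, which endothelial ETS factors can bind, and the GATA core AGATAA, each on either strand.
Kdr, chr5:75978456-75978705, minus strand: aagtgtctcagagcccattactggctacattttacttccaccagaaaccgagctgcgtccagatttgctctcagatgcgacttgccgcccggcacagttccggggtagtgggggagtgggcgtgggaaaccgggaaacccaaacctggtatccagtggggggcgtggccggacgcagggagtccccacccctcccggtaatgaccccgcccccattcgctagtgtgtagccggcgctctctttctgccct
Flt1, chr5:147726012-147726261, minus strand: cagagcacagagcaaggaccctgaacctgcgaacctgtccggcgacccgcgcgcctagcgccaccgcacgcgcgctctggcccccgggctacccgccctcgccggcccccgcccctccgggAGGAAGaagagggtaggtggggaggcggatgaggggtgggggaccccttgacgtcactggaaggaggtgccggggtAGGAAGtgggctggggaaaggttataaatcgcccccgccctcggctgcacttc
Emcn, chr3:137340828-137341077, plus strand: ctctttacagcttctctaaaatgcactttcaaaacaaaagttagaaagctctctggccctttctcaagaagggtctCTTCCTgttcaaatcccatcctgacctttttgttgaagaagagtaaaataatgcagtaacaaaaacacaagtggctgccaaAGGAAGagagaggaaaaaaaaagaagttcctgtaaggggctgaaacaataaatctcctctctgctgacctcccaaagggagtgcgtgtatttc
Rgs5, chr1:169655251-169655500, plus strand: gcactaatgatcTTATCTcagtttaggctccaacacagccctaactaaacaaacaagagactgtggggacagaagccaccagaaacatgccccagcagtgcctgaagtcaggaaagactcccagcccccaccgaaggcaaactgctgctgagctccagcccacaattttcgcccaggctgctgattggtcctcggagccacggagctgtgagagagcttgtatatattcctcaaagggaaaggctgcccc

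An ETS core was present in 2 of the 7 promoters, Emcn and Flt1, with 2 matches in each. Those of Flt1 began 129 and 53 bases before the start and those of Emcn 174 and 93 bases before it. Of all 32851 promoter windows of the same length 39.2% held an ETS core. The GATA core was found once, 238 bases before the start of Rgs5, and in 9.99% of all windows. The SOX core ACAATG and the CArG box, the serum response element of contractile genes, occurred in 0 of the 7, against 10.7% and 1.47% of all windows. The promoters also differed in base composition. That of Flt1 was 70.4% G or C with 23 CpG, that of Kdr 61.6% with 16, that of Rgs5 53.6% with 4, and that of Emcn 40.8% with 1, while the median over all windows was 52.4%. A match describes these letters only. RefSeq starts can differ from the GENCODE gene bounds given with each gene, so that the windows of Kdr and Emcn reach a few bases into the GENCODE gene.

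No difference between the genotypes was detected in limma for any of the 10 vessel genes, and for most of them the widest gap lay between the cello libraries. Cello replicate 1 was the highest library for 10 of the 10 genes, whereas it was the highest for 23.6% of the 14721 genes tested. Cello replicate 2 was the lowest for 8 of 10. The share of all tested genes with that library lowest is not given, so this count cannot be read as particular to these genes. For 9 of the 10 genes the groups overlapped. Rgs5 was the exception, with both cello libraries above both wild-type libraries, an order that 16.9% of all tested genes showed. All 10 genes passed the filter of at least 1 CPM in at least 2 libraries and exceeded it in every library. By limma on log2(CPM + 0.5), adjusted over all tested genes, 0 of the 10 passed an adjusted p of 0.05, and 0% of all genes passed. EdgeR on the recovered reads also called 0 of the 10. DESeq2 called 1 of the 10, which was Rgs5, against 1.44% of the genes to which it gave an adjusted p. At an unadjusted p under 0.05 limma listed 1 of the 10 with higher values in cello, again Rgs5, against 4.42% of all genes. Such counts are not given for fits that leave out 1 library, because 1 group then holds 1 library. The median log2 fold change over the 10 genes was 0.15, and over all tested genes it was -0.03. Without cello replicate 1 the median of the 10 was -0.13, without cello replicate 2 it was 0.47, and it was 0.14 and 0.15 without wild-type replicates 1 and 2.

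**Figure D1:**
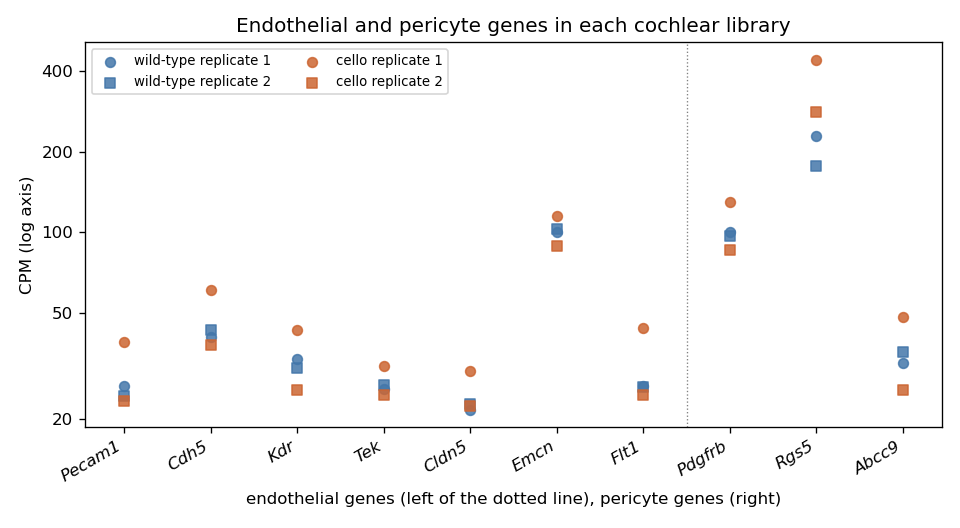
CPM of the 10 genes in each library on a log axis, with 1 point per library, wild-type in blue, cello in orange, circles for replicate 1 and squares for replicate 2. Cello replicate 1 is the top point for every gene, and only for Rgs5 does cello replicate 2 also lie above both wild-type points.

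Pecam1 and Cdh5 encode adhesion proteins at the contacts between endothelial cells. Pecam1 (ENSMUSG00000020717, chr11:106654217-106750628, minus strand), also called CD31 and shared with platelets and leukocytes, stood at 26.6 and 24.4 CPM in the wild-type libraries against 38.8 and 23.4 CPM in cello. Cdh5 (ENSMUSG00000031871, chr8:104101625-104144511, plus strand), the cadherin of endothelial adherens junctions, stood at 40.4 and 42.9 CPM in the wild-type libraries against 60.7 and 37.8 CPM in cello. For both genes 1 cello library lay above and the other below the wild-type pair, which lay close together. The log2 fold change of Pecam1 was 0.24 (95% interval -0.37 to 0.85; limma, adjusted p = 0.733), and it was -0.12 without cello replicate 1. That of Cdh5 was 0.20 (95% interval -0.37 to 0.77; limma, adjusted p = 0.754), and it was -0.14 without cello replicate 1.

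Cldn5 and Emcn belong to the barrier and to the luminal surface. Cldn5 (ENSMUSG00000041378, chr16:18776847-18778262, plus strand), the claudin that seals endothelial tight junctions, stood at 21.7 and 22.8 CPM in the wild-type libraries against 30.3 and 22.4 CPM in cello. Cello replicate 2 lay between the wild-type libraries, and the log2 fold change of 0.23 (95% interval -0.18 to 0.63; limma, adjusted p = 0.619) was 0.01 without cello replicate 1. Emcn (ENSMUSG00000054690, chr3:137341067-137432185, plus strand), a sialomucin of capillary and venous endothelium, stood at 99.9 and 102.7 CPM in the wild-type libraries against 114.7 and 89.0 CPM in cello. Its group means were 101.3 ± 1.996 and 101.8 ± 18.2 CPM (SD, n = 2), and its 95% interval ran from -0.35 to 0.34 on the log2 scale. The wild-type libraries of Emcn lay between the cello libraries, and the ratio of cello replicate 1 to the mean of the other libraries, 1.18, was the smallest of the 10 genes.

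Kdr, Flt1 and Tek are receptor tyrosine kinases. Kdr (ENSMUSG00000062960, chr5:75932827-75978458, minus strand), the main signalling receptor for VEGF-A, stood at 33.4 and 31.0 CPM in the wild-type libraries against 43.0 and 25.7 CPM in cello. Flt1 (ENSMUSG00000029648, chr5:147561604-147726011, minus strand), which binds VEGF-A tightly and signals weakly, stood at 26.4 and 26.2 CPM in the wild-type libraries against 43.9 and 24.7 CPM in cello. The cello libraries again lay on either side of the wild-type libraries for both genes. Tek (ENSMUSG00000006386, chr4:94739289-94874976, plus strand), the angiopoietin receptor, stood at 25.8 and 26.8 CPM in the wild-type libraries against 31.5 and 24.7 CPM in cello, a narrower spread than that of Kdr or Flt1. The log2 fold changes were 0.05 for Kdr (95% interval -0.57 to 0.66), 0.32 for Flt1 (-0.36 to 0.997) and 0.08 for Tek (-0.27 to 0.43). Limma gave adjusted p of 0.953, 0.674 and 0.834. Without cello replicate 1 the values were -0.32, -0.092 and -0.091.

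The balance of the VEGF receptors was compared within each library. The ratio of Kdr to Flt1 CPM was 1.26 and 1.18 in wild-type and 0.979 and 1.04 in cello. Both cello ratios lay below both wild-type ratios. This ratio was looked at after the values were seen, and with 2 libraries per genotype the smallest exact permutation p is 0.333, so no test was made. Per kb of exon Kdr exceeded Flt1 in every library, by 1.46 to 1.89 times. The coreceptor gene Nrp1 stood at 89.8 and 81.6 CPM in the wild-type libraries against 106.8 and 86.6 CPM in cello, and the ligand gene Vegfb at 23.7 and 25.0 against 19.88 and 20.04 CPM (log2 fold change -0.28, SE 0.09; limma, adjusted p = 0.441). Of the 9 tested VEGF ligand and receptor genes, which include Kdr and Flt1, 0 passed. Values lay above 0 for 6 and below for 3, and the median of 0.05 on the log2 scale is the value of Kdr itself. Of all tested genes 43.4% lay above 0.

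The angiopoietin group holds the receptors, their phosphatase and the ligands. Tie1, the partner of Tek, stood at 21.3 and 22.0 CPM in the wild-type libraries against 32.6 and 19.9 CPM in cello. Ptprb, the endothelial phosphatase that acts on Tek, stood at 31.2 and 31.8 against 48.3 and 30.1 CPM. Both had cello replicate 1 highest and cello replicate 2 lowest, as Tek did. Angpt2, the ligand that endothelium releases and that in many settings blocks Tek, stood at 2.49 and 3.27 CPM in the wild-type libraries against 5.30 and 6.91 CPM in cello, so that the groups did not overlap and cello replicate 2 was the highest. Both cello libraries were higher for 1 of the 6 genes of this group, against 16.9% of all tested genes. The log2 fold change of Angpt2 was 0.96 (SE 0.22). It did not pass in limma (adjusted p = 0.419) or edgeR (adjusted p = 0.451), DESeq2 gave adjusted p = 0.049, and the log2 fold change was 1.14 without cello replicate 1. Angpt4 stood lower (-0.41, SE 0.19; limma, adjusted p = 0.494). Angpt1, the activating ligand, was named after its values were seen and stood at 10.3, 9.99, 8.81 and 15.1 CPM in the same order of libraries. Of the 6 genes of this group 0 passed in limma.

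**Figure D2:**
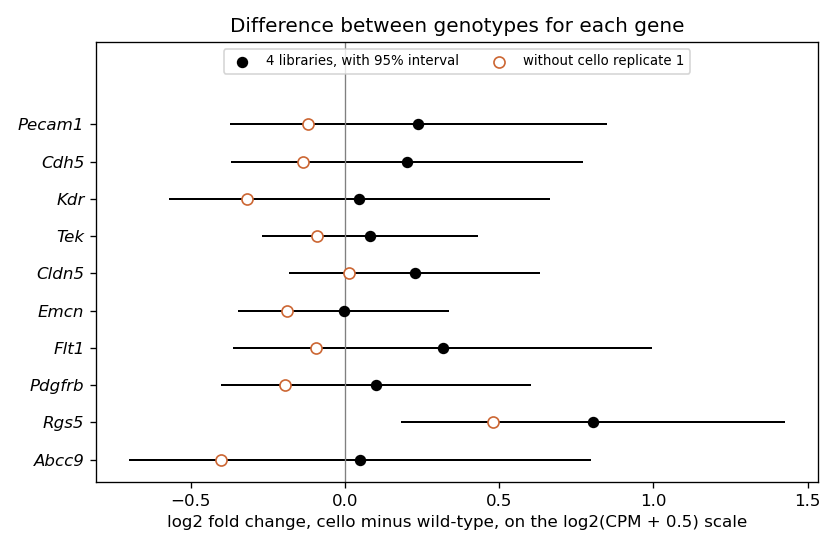
Log2 fold change of each gene, cello minus wild-type, with its 95% interval from limma (black) and the value without cello replicate 1 (open circles). All intervals but that of Rgs5 include 0, and 8 of the 10 open circles lie below 0, those of Cldn5 and Rgs5 being the others.

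Of the pericyte genes, Pdgfrb and Abcc9 followed the endothelial genes. Pdgfrb (ENSMUSG00000024620, chr18:61045150-61085061, plus strand), the receptor by which PDGF-B recruits pericytes and which fibroblasts also carry, stood at 100.5 and 96.6 CPM in the wild-type libraries against 129.7 and 85.9 CPM in cello. Abcc9 (ENSMUSG00000030249, chr6:142587862-142702315, minus strand), the sulfonylurea receptor subunit of the vascular K-ATP channel, stood at 32.3 and 35.7 CPM in the wild-type libraries against 48.2 and 25.6 CPM in cello. In both the wild-type libraries lay between the cello libraries. The log2 fold change of Pdgfrb was 0.10 (95% interval -0.40 to 0.60; limma, adjusted p = 0.861) and that of Abcc9 0.05 (95% interval -0.70 to 0.80; limma, adjusted p = 0.959). Without cello replicate 1 they were -0.20 and -0.40. Kcnj8, the pore subunit that pairs with Abcc9, stood at 8.85 and 9.32 CPM in the wild-type libraries against 10.95 and 8.24 CPM in cello, the same order of libraries for the cello pair. Per kb the ratio of Abcc9 to Kcnj8 was 0.946 to 1.34 over the 4 libraries. Abcc8 and Kcnj11, the subunits used by endocrine and neural cells, reached at most 3.35 and 1.52 CPM, and 0 of the 4 channel genes passed. Abcc8 was higher in cello at an unadjusted limma p under 0.05, as were 4.42% of all genes. For 1 of the 4 both cello libraries lay above both wild-type libraries, against 16.9% of all tested genes.

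Rgs5 differed from the rest of the 10 vessel genes in the order of its libraries, but some further endothelial and pericyte genes given below shared this order. Rgs5 (ENSMUSG00000026678, chr1:169655501-169695813, plus strand) encodes a regulator that ends G protein signals and is among the most abundant pericyte transcripts. It stood at 229 and 178 CPM in the wild-type libraries against 441 and 281 CPM in cello, with means of 203 ± 36.5 and 361 ± 113 CPM (SD, n = 2). Both cello libraries exceeded both wild-type libraries, and the gap between the cello libraries was wider than the gap from cello replicate 2 to wild-type replicate 1. The log2 fold change was 0.80 (SE 0.24, 95% interval 0.18 to 1.43), the largest of the 10. It did not pass over all genes in limma (adjusted p = 0.432) or edgeR (adjusted p = 0.476), and it passed in DESeq2 (log2 fold change 0.87, adjusted p = 0.022). Without cello replicate 1 its log2 fold change was 0.48 (limma, adjusted p = 0.390), and without cello replicate 2 it was 1.13 (limma, adjusted p = 0.142). The gene lies on the chromosome of Ikzf2, 99.97 megabases away.

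Ratios within a library set Rgs5 against the other pericyte genes. The ratio of Rgs5 to Pdgfrb was 2.28 and 1.84 in wild-type and 3.40 and 3.27 in cello. That of Rgs5 to Abcc9 was 7.09 and 4.97 against 9.15 and 10.99, whereas that of Pdgfrb to Abcc9 was 3.11 and 2.70 against 2.69 and 3.36. The Rgs5 ratios did not overlap between the genotypes, while the ratio of the other pericyte genes did. Against Rgs4, a related gene of the same RGS subfamily, Rgs5 stood at 3.91 and 3.31 in the wild-type libraries against 6.96 and 4.96 in cello. Rgs4 itself varied little, at 58.5 and 53.7 CPM against 63.4 and 56.7 CPM. Of the 9 genes of this subfamily, 6 were tested and 0 passed in limma. Rgs2 stood at 103.4 and 93.4 against 98.5 and 68.4 CPM, and Rgs8 at 1.41 and 2.70 against 1.01 and 1.73 CPM. These ratios were chosen after the values were seen and were not tested. The Rgs5 ratios all share the values of Rgs5, which did not overlap by themselves, so they are not separate results.

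**Figure D3:**
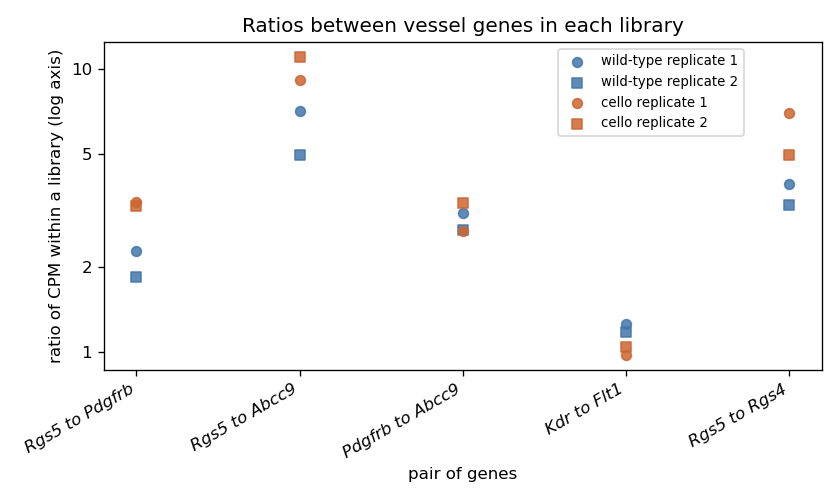
Ratio of CPM between pairs of genes within each library on a log axis, wild-type in blue and cello in orange. The 3 ratios with Rgs5 on top are higher in both cello libraries, up to 10.99 for Rgs5 to Abcc9, Kdr to Flt1 is lower in both, and Pdgfrb to Abcc9 overlaps. The 3 ratios share the values of Rgs5 and are not separate results.

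The further genes of the same cells showed how far the pattern extended. Of 22 other endothelial genes, 20 had cello replicate 1 as the highest library, the exceptions being Ramp2 and Vwf, and 0 passed in limma. Their median log2 fold change was 0.21, and -0.08 without cello replicate 1. The 3 with the smallest unadjusted p were Ramp2, a subunit of the adrenomedullin receptor, at 28.1 and 23.6 CPM in wild-type and 19.6 and 19.6 CPM in cello, Ecscr, a surface protein of endothelial migration, at 3.40 and 3.94 against 6.76 and 5.01 CPM, and Clec14a, a lectin of vessels, at 17.0 and 18.4 against 28.5 and 20.3 CPM. Over the 22 genes the groups overlapped for 16. Both cello libraries were higher for 5, which were Ecscr, Clec14a, Erg, Robo4 and Mmrn2, against 16.9% of all tested genes, and lower for 1, Ramp2, against 28.7%. Vwf, the platelet-binding protein of larger vessels, was level at 12.1 to 13.8 CPM.

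Among 11 other pericyte genes cello replicate 1 was the highest for 7. Their median log2 fold change was 0.06, and 0 passed in limma. Of the 11, 7 lay above 0 and 4 below, where 43.4% of all tested genes lay above 0. Heyl, a Notch target, stood at 72.3 and 78.9 CPM in the wild-type libraries against 70.3 and 53.7 CPM in cello. Higd1b, a narrow pericyte marker, stood at 1.85 and 1.64 against 2.76 and 2.04 CPM, and the adhesion gene Mcam at 42.3 and 52.6 against 49.2 and 55.6 CPM. Both cello libraries were higher for 1 of the 11, Higd1b, against 16.9% of all tested genes. They were lower for 1, Heyl, against 28.7%. In the PDGF group, Pdgfb, the ligand released by endothelium, stood at 12.6 and 11.9 against 12.0 and 9.42 CPM, and 0 of 6 genes, Pdgfrb included, passed.

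Contractile genes mark vascular smooth muscle, the mural cells of larger vessels. Of 7 tested, 6 had values below 0 and the median was -0.25 on the log2 scale, and 0 passed in limma. Over all tested genes 43.4% lay above 0, so values below 0 were the more common. Lmod1, a leiomodin of smooth muscle thin filaments, stood at 13.5 and 15.6 CPM in the wild-type libraries against 9.02 and 7.96 CPM in cello, with a log2 fold change of -0.74 (SE 0.14). Limma gave it adjusted p = 0.419, edgeR adjusted p = 0.451 and DESeq2 adjusted p = 0.037. Pln stood at 4.93 and 5.20 against 3.60 and 4.02 CPM, and Des, a muscle intermediate filament gene, at 13.6 and 15.2 against 11.05 and 12.3 CPM. For these 3 genes, the 3 of the list with the smallest unadjusted p, both cello libraries lay below both wild-type libraries, as for 28.7% of all tested genes. The other 4, Acta2, Tagln, Myh11 and Mylk, overlapped between the genotypes. Cnn1 was under the filter in every library.

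**Figure D4:**
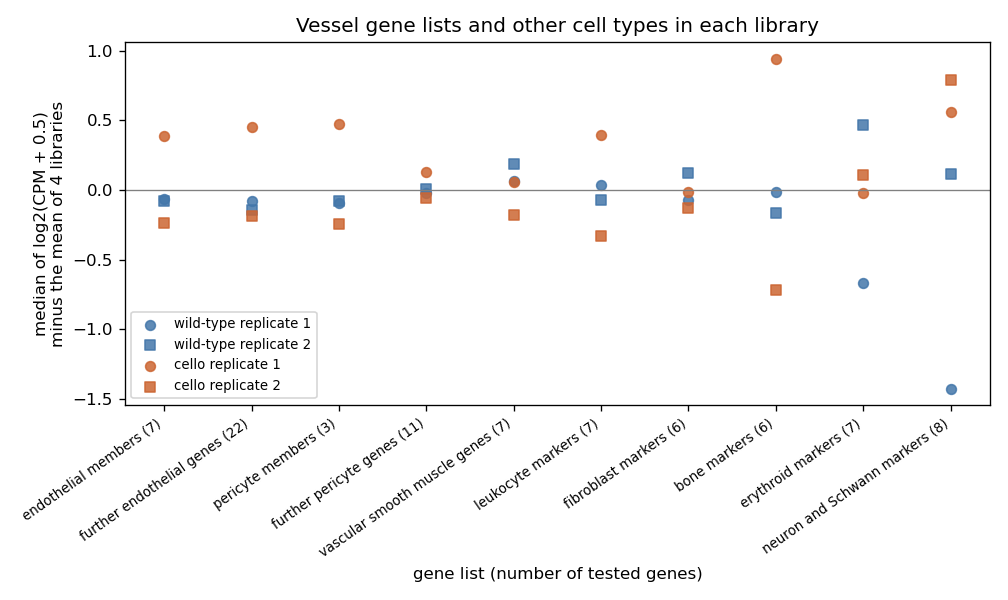
Median over the tested genes of each list of log2(CPM + 0.5) minus the mean of the 4 libraries, 1 point per library, wild-type in blue and cello in orange. The endothelial and pericyte genes stand at 0.39 and 0.47 in cello replicate 1 and at -0.24 and -0.25 in cello replicate 2. Bone markers stand at 0.94 and -0.72 in these libraries. The nerve markers stand at -1.43 and 0.11 in wild-type replicates 1 and 2 and at 0.56 and 0.79 in the cello libraries.

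Markers of other tissues were uneven between the libraries too. Bone markers had cello replicate 1 as the highest library for 6 of 6 genes. Ibsp stood at 1044 CPM there and at 435, 467 and 204 CPM in wild-type replicates 1 and 2 and cello replicate 2. Leukocyte markers, cells that also carry Pecam1, had it highest for 5 of 7 tested genes, and their sums over 8 genes were 122 to 123 CPM in wild-type and 107 to 152 CPM in cello. Ptprc, the general leukocyte gene, stood at 5.27 and 5.43 against 12.6 and 4.95 CPM, while the macrophage receptor Csf1r stood at 65.4 and 65.2 against 67.9 and 57.1 CPM. Platelet and megakaryocyte markers summed to 22.0 to 23.0 CPM in wild-type and 19.4 to 23.9 CPM in cello over 7 genes, with Gp6 at 0 reads in wild-type replicate 1 and cello replicate 2. Fibroblast markers, which share Pdgfrb, summed to 1931 to 2046 CPM in wild-type and 1789 to 2159 CPM in cello over 6 genes, with cello replicate 1 highest for 1 of them. Erythroid markers summed to 625 to 1386 CPM in wild-type and 986 to 1194 CPM in cello over 7 genes. Their sum was highest in wild-type replicate 2, while cello replicate 1 was the highest library for 3 of the 7 genes. For 7 of the 8 neuron and Schwann cell markers both cello libraries lay above both wild-type libraries, against 16.9% of all tested genes. Their median log2 fold change was 1.35, and 1.45 without cello replicate 1, and 0 of them passed in limma. The part of these tissues in the levels of the vessel genes was not tested.

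Barrier and subtype genes gave further detail on the vessels. Of 10 barrier transporter genes 0 passed in limma, and 9 lay above 0, against 43.4% of all tested genes. Their median log2 fold change was 0.32, and it was 0.00 without cello replicate 1. Slc7a5, an amino acid transporter gene that epithelia also use, stood at 43.3 and 48.3 CPM in the wild-type libraries against 66.0 and 66.7 CPM in cello (log2 fold change 0.53, SE 0.09). Limma gave it adjusted p = 0.419, edgeR adjusted p = 0.451 and DESeq2 adjusted p = 0.0012. Abcg2, a drug efflux pump gene, stood at 33.9 and 33.9 against 49.3 and 38.8 CPM, and Lsr, a gene of tricellular junctions, at 13.4 and 14.9 against 10.4 and 10.2 CPM. Of the 9 tested arterial and venous genes 0 passed. Nr2f2, the venous factor that other mesenchyme also expresses, stood at 95.3 and 95.7 against 67.5 and 77.8 CPM. Ackr1, a chemokine receptor gene of venules, stood at 0.322 and 1.35 against 2.73 and 2.51 CPM, and Hey1, a Notch target of arteries, at 44.4 and 44.9 against 40.2 and 36.6 CPM.

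Levels were compared between genes per kb of merged exon length. Rgs5 was the most abundant at 62.1 ± 25.1 CPM per kb (SD over the 4 libraries), and its lowest library, 39.1, exceeded the highest of the next gene. Pdgfrb (18.8 ± 3.42), Emcn (18.8 ± 1.96) and Cldn5 (17.2 ± 2.85) followed with overlapping ranges. Cdh5 stood apart from its neighbours at 10.8 ± 2.47 CPM per kb, with no overlap in either direction. Tek (5.77 ± 0.635), Pecam1 (4.54 ± 1.14), Abcc9 (4.24 ± 1.13) and Kdr (3.68 ± 0.800) overlapped each with the next, and Flt1 was the lowest at 2.24 ± 0.673. Kdr exceeded Flt1 in 4 of 4 libraries although their ranges overlapped. Merged exons count every annotated transcript, so a gene with a long rarely used exon appears lower.

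**Figure D5:**
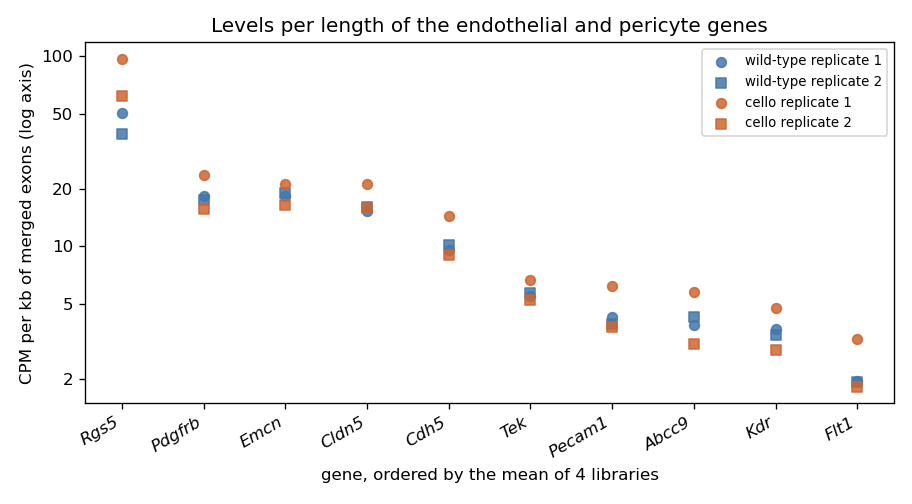
CPM per kb of merged exons on a log axis for the 10 genes, ordered by their mean over 4 libraries, with 1 point per library. Rgs5 lies apart at the top between 39.1 and 97.1, and Flt1 is lowest between 1.83 and 3.25.

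For the median profile of each set of genes, the most similar other genes over the 4 libraries were taken by the smallest root mean square distance of log2 deviations among 13580 tested genes. For the 7 endothelial genes these included Bmp3, Aass, Acot11 and Nfkbid, at distances of 0.01 to 0.02. For the 3 pericyte genes they were Igfbp7, Tie1, Slc22a15, Was and S1pr1, at 0.02 to 0.04. With 4 libraries such likeness is common: 408 genes lay as near to the endothelial profile as the farthest of its own 7 members, which was Emcn at 0.12. For the pericyte profile the farthest member was Rgs5 at 0.33, and 7966 of the 13580 genes lay within that distance.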

How the data were processed

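RNA-seq of whole cochleae was deposited as 1 table of CPM values (reads scaled to a common total) per library, scaled by the authors to all counted alignments, as the sums of the deposited values show. The submitters' processing notes name TopHat and the build GRCm38. The method of assigning reads to genes, its use of strand and its annotation were each not given in the sources used here, so reads of overlapping genes on opposite strands may not be separated; Abcc9 shares exon sequence with an antisense gene listed at 0. The 5 entries that name no gene held 27.2% to 30.0% of alignments and stayed out of all tests.

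Groups were taken from the sample titles. The genes, lists and ratios were chosen with earlier results of these data known. All 10 vessel genes are named, with up to 3 genes of each other list by smallest unadjusted p; further genes were named after their values were seen (Vwf, Erg, Robo4, Mmrn2, Angpt1, Tie1, Rgs4, Acta2, Tagln, Myh11, Mylk, Cnn1, Ibsp, Csf1r, Gp6, Pdpn, Myo7a, Slco1c1, Slco1a4). Of 37239 identifiers 36504 matched a symbol; positions and merged exon lengths are from GENCODE M21, on the same build. The 14721 genes that reached 1 CPM in 2 or more libraries were fitted as log2(CPM + 0.5) by limma 3.58.1 under R 4.3.3, using a trend of variance on level and a two-sided test, and adjusted by Benjamini-Hochberg over all tested genes, with a threshold of 0.05. Fold changes on that scale understate low genes. Whole reads were recovered for 100% of values (tolerance 0.001 of a read), and edgeR 4.0.16 (quasi-likelihood) and DESeq2 1.42.0 were run on them. DESeq2 left 1142 adjusted p undefined. On simulated counts of cello against wild-type over 14580 genes, limma, edgeR and DESeq2 recovered 58%, 57% and 66% of 2-fold changes. Each recovered 97% of 4-fold changes, with 23 false calls of 178, 22 of 176 and 41 of 204. On the measured libraries they called 0, 0 and 195 genes. The recovery therefore describes the simulated counts only and does not give the sensitivity of the tests on these libraries. Tables and figures were made in Python 3.11.15 with pandas 2.3.3 and matplotlib 3.10.9. Alternatives were other pseudocounts, filters, scalings and variance models, a replicate block, the count tests named above and fits that leave 1 library out. One gene near the endothelial profile is not reported here.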

Additional observations from a re-analysis of the deposited data

How the results depend on the processing

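With 2 libraries per genotype, 1 library decides most values. Over the fits that leave out 1 library each, the log2 fold change ran from -0.40 to 0.50 for Abcc9, -0.14 to 0.54 for Cdh5, -0.19 to 0.18 for Emcn, -0.092 to 0.73 for Flt1, -0.32 to 0.41 for Kdr, -0.20 to 0.40 for Pdgfrb, -0.12 to 0.60 for Pecam1 and -0.091 to 0.26 for Tek, changing sign in each. It stayed above 0 for Cldn5 (0.01 to 0.44) and Rgs5 (0.48 to 1.13). The median over the 10 genes ran from -0.13 to 0.47. In these fits the group left with 1 library is assumed to vary like the other. The count of genes passing over all genes ranged from 0 to 90, the 90 without wild-type replicate 2, and 0 of the 10 vessel genes passed in any of them. DESeq2 called 195 genes, 1 of them a vessel gene, against 0 in limma and edgeR, which listed 1603 and 1463 at an unadjusted p under 0.05; the cause was not tested. Emcn, at -0.00, turned to 0.025 with CPM over reads in genes, 0.028 without haemoglobin and mitochondrial genes, 0.048 in DESeq2, 0.037 with TMM factors, 0.049 in edgeR, 0.035 with median-of-ratios factors and 0.031 with quantile normalization. No other vessel gene changed sign outside the fits without a library, and the adjusted p of Rgs5 ranged from 0.022 to 0.931 over all alternatives. Same-numbered libraries are not said to share a litter, and the correlation of their deviations over 14721 genes was 0.13. With the replicate block the median log2 fold change stayed at 0.15, Rgs5 had adjusted p = 0.232 in limma, and 0 genes passed. The counting error of these genes was at most 3.23%, and the part of depth in the calls was not tested.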

Other observations

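Lymphatic vessel genes were also measured. Lyve1, a hyaluronan receptor gene of lymphatic endothelium and some macrophages, stood at 3.94 and 4.01 CPM in the wild-type libraries against 3.35 and 5.01 CPM in cello. Flt4, the VEGF-C receptor gene, stood at 4.77 and 4.77 against 8.39 and 3.92 CPM, so that the wild-type libraries again lay between the cello libraries. Prox1, a lymphatic factor that supporting cells and neurons of the cochlea also express, stood at 9.65 and 15.1 against 17.7 and 25.3 CPM (log2 fold change 0.79, SE 0.27; limma, adjusted p = 0.441). Its libraries did not overlap between genotypes, with both cello libraries higher, as for 16.9% of all tested genes. Pdpn is listed at 0 reads in all 4 libraries, where 3 reads would be 0.0603 to 0.0712 CPM. The method of assigning reads to genes was not given, so this 0 need not mean that the transcript was absent.

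The organic anion transporter genes Slco1c1 and Slco1a4, named after their values were seen, were among the most uneven of the barrier list within cello. Slco1c1 stood at 244 and 241 CPM in the wild-type libraries against 489.8 and 198 CPM in cello, and Slco1a4 at 124 and 122 against 236 and 108 CPM. Neither passed in limma (adjusted p = 0.761 and 0.713).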
